A study of Mus musculus with 12 samples.

Results

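The thrombospondin genes Comp, Thbs1, Thbs2, Thbs3 and Thbs4 were examined in single tendon cells of mice with and without the gene for tenomodulin (Tnmd). Tenomodulin is a membrane glycoprotein of mature tendon cells. All 5 genes of the family were taken by symbol from the count table, which lists 55418 gene symbols in 12 cells. Comp, Thbs1, Thbs2 and Thbs4 were detected, while Thbs3 had 0 counts in every cell. The cells came from Achilles tendons of untreated, non-injured mice on a C57BL/6 background that carried the ScxGFP reporter, which marks tendon cells through the Scx (scleraxis) promoter. There were 6 Tnmd-/- and 6 WT cells, each picked by hand after collagenase digestion and amplified by Smart-Seq2, which covers the whole transcript and tags no molecules. Tnmd lies on the X chromosome, and the WT group of the study also comprised heterozygous females. Neither the sex, the age nor the animal of a cell is given in the labels. Each genotype was therefore treated as 1 sample, no test was made between genotypes, and cells are described by their range.

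Thrombospondins are secreted, calcium-binding glycoproteins of the extracellular matrix that bridge collagens, proteoglycans, growth factors and cell surface receptors. Thbs1 and Thbs2 assemble as trimers and carry type 1 repeats, which mediate inhibition of angiogenesis. Thbs1 also binds and activates latent transforming growth factor beta. Comp (cartilage oligomeric matrix protein), Thbs3 and Thbs4 assemble as pentamers without type 1 repeats. Comp is one of the main non-collagenous proteins of load-bearing tendon and cartilage, and Thbs4 is abundant at muscle-tendon attachments and in tendon.

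Total counts ranged from 892713 to 10333351 per Tnmd-/- cell and from 4516036 to 13613080 per WT cell, with sums of 35088506 and 53439236. The study divided its cells by RNA degradation. Tnmd-/- cells 9, 10 and 20 and WT cells 4, 5 and 10 were less degraded, and Tnmd-/- cells 1, 3 and 7 and WT cells 1, 2 and 14 more degraded. Tnmd-/- cells 3 and 7 stood apart by their low totals of 1504775 and 892713, and mitochondrial genes took 51.8% of the counts of cell 3 against 1.75% to 7.30% in the other 11 cells. Tnmd itself had 8 counts over the Tnmd-/- cells and 10185 over the WT cells, of which 10178 lay in WT cell 14. Scx reached 10 counts only in WT cells 1, 4 and 10. Tendon fibroblast markers summed to 40558 CPM (counts per 1000000 counts) over the Tnmd-/- cells and to 58092 CPM over the WT cells, of which Dcn made up 40010 and 56340 CPM. The other 10 markers, which include Tnmd, summed to 549 and 1751 CPM, with Lum at 40 and 21388 counts and Kera and Tnc at 0 in all 12 cells. All WT counts of Lum came from WT cells 4 and 5, at 255 and 1515 CPM.

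In the mouse genome (GRCm38), Comp (ENSMUSG00000031849) lies at chr8:70373558-70382066 on the plus strand and Thbs4 (ENSMUSG00000021702) at chr13:92751590-92794818 on the minus strand. Thbs3 (ENSMUSG00000028047) occupies chr3:89215180-89226837 on the plus strand. Thbs1 (ENSMUSG00000040152) spans chr2:118111876-118127133 on the plus strand, and Thbs2 (ENSMUSG00000023885) spans chr17:14665500-14694235 on the minus strand. The coding sequences fell into the same groups as the proteins. Comp and Thbs4 shared 67.5% of aligned coding bases, Comp and Thbs3 65.6%, Thbs3 and Thbs4 63.9%, and Thbs1 and Thbs2 65.3%, whereas pairs across the groups shared 53.5% to 58.3%. Since reads of similar genes can be miscounted, the most alike stretch within a single coding exon of each member is shown from the same genome, 5′ to 3′ along the transcript, with bases identical in all 5 members in capitals.
Comp: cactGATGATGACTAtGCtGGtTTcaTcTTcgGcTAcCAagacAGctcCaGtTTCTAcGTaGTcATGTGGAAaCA
Thbs4: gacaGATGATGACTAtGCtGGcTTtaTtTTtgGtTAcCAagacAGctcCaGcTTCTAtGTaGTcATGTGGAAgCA
Thbs3: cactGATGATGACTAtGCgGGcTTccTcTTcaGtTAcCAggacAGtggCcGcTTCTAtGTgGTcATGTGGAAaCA
Thbs1: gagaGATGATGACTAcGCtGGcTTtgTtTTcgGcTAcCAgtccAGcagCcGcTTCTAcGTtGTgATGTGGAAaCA
Thbs2: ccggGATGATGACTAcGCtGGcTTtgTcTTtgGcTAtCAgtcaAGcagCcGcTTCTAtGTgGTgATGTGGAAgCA
The stretch holds 75 bases and encodes part of the C-terminal region of the proteins. It lies at chr8:70380160-70380234 in exon 16 of 19 of Comp, chr13:92755156-92755230 in exon 19 of 22 of Thbs4 and chr3:89224865-89224939 in exon 20 of 23 of Thbs3. In Thbs1 it lies at chr2:118123323-118123397 and in Thbs2 at chr17:14670736-14670810, in exon 19 of 22 of both. Of its 75 positions, 48 were identical in all 5, and it differed from Comp at 10 positions in Thbs4, 13 in Thbs3, 17 in Thbs1 and 21 in Thbs2. No run of 50 bases in the main transcript of any member occurred in a transcript of another member. Exon bases shared with an antisense gene amounted to 3.43% in Thbs1 (with Gm29233) and 6.59% in Thbs3 (with Mtx1), and to 0 in Comp, Thbs2 and Thbs4.

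Comp was the dominant thrombospondin of both genotypes, and its pooled level was close between them. In Tnmd-/- cells 1, 3, 7, 9, 10 and 20 Comp reached 16855, 124, 258, 6171, 10878 and 8926 CPM. In WT cells 1, 2, 4, 5, 10 and 14 it reached 5689, 4722, 12476, 2445, 14265 and 20151 CPM. The 2 shallow Tnmd-/- cells held the lowest levels, and the values of the other 4 Tnmd-/- cells lay within the WT range. Every cell had at least 10 counts of Comp, as had 213 genes (2.10% of the 10123 genes with at least 10 counts in any cell). Ranked by CPM per kilobase of exon, Comp held places 6 to 66 in 10 cells and places 440 and 428 in Tnmd-/- cells 3 and 7. Pooled, Comp measured 9290 CPM in Tnmd-/- cells (95% Poisson interval 9258 to 9322) and 9863 CPM in WT cells (9836 to 9890), a log2 ratio of Tnmd-/- over WT of -0.09 (-0.09 to -0.08). All intervals account for the counting of reads alone, and differences among cells were far larger.

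The low Comp level of Tnmd-/- cells 3 and 7 depended on how the libraries were scaled. Divided by DESeq2 size factors, Comp measured 4939 and 7208 normalised counts there, next to 6766 in WT cell 5, and at most 163051 in WT cell 14. With TMM factors they stayed lowest, at 235 and 1143 CPM. The pooled log2 ratio was 0.014 without these cells, 0.27 in more degraded cells alone and -1.25 with DESeq2 size factors and equal cell weights, so no direction of Comp between the genotypes held in all settings.

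**Figure D1:**
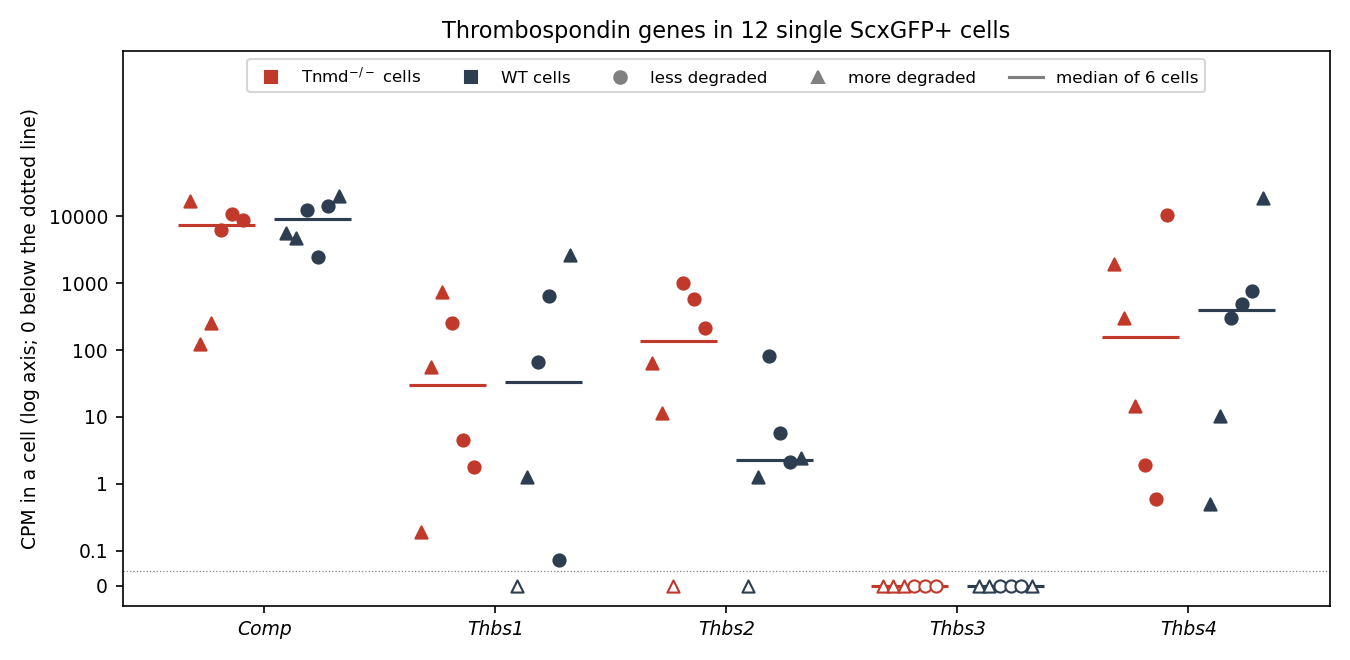
CPM of each thrombospondin gene in each of the 12 cells on a log axis, with zeros drawn as open symbols below the dotted line; colour gives the genotype, circles the less and triangles the more degraded cells, and bars the median of 6 cells. Thbs2 has a median of 138 CPM in Tnmd-/- and 2.28 CPM in WT cells, while the medians of Thbs1 are 30.1 and 33.5 CPM and its cells overlap.

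Thbs4, the pentameric relative of Comp, was seen in most cells, but 1 cell of each genotype gave most of its counts. It measured 1950, 303, 14.6, 1.94, 0.582 and 10378 CPM in Tnmd-/- cells 1, 3, 7, 9, 10 and 20. In WT cells 1, 2, 4, 5, 10 and 14 it measured 0.501, 10.2, 304, 482, 775 and 18765 CPM. The genotypes overlapped over nearly the whole span, and 5 cells of each had at least 10 counts. Tnmd-/- cell 20 gave 86.6% of the 80822 Tnmd-/- counts and WT cell 14, the cell that held Tnmd, gave 80.8% of the 104916 WT counts. The pooled levels were 2303 CPM in Tnmd-/- and 1963 CPM in WT cells, a log2 ratio of 0.23 (0.22 to 0.24). This ratio took its sign from single cells, at -2.36 without Tnmd-/- cell 20 and 2.48 without WT cell 14. It was 0.73 without Tnmd-/- cell 9 or without cell 10, and slightly below 0, at -0.10 to -0.04, without WT cell 4, 5 or 10. It also differed in sign between less degraded (2.28) and more degraded cells (-1.98). In the less degraded cells, the 3 WT values lay between 304 and 775 CPM, whereas 2 of the 3 Tnmd-/- values were under 2 CPM and the remaining value was 10378 CPM.

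Thbs3, the third pentameric member, had 0 counts in all 12 cells, which at 3 counts in the sum allows a level of up to 0.0855 CPM for Tnmd-/- and up to 0.0561 CPM for WT. Over all symbols, 76.1% were at 0. Its antisense neighbour Mtx1 had 816 counts, all in WT cell 10.

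Thbs1, the trimeric member that activates latent transforming growth factor beta, was lower in the pooled Tnmd-/- cells, but its median was alike. Its levels were 0.188, 55.8, 740, 253, 4.46 and 1.78 CPM in Tnmd-/- cells 1, 3, 7, 9, 10 and 20. In WT cells 1, 2, 4, 5, 10 and 14 they were 0, 1.24, 65.7, 638, 0.0735 and 2650 CPM. The medians of 30.1 CPM in Tnmd-/- and 33.5 CPM in WT cells were close, and the cells of the genotypes overlapped over most of their range. Each median fell in a wide gap between cells, from 4.46 to 55.8 CPM in Tnmd-/- and from 1.24 to 65.7 CPM in WT cells. The sums of 3420 and 20467 counts gave 97.5 CPM (94.2 to 101) in Tnmd-/- and 383 CPM (378 to 388) in WT cells. Thbs1 was thus 3.93-fold lower in the pooled Tnmd-/- cells, a log2 ratio of -1.97 (-2.03 to -1.92). WT cell 14 alone gave 58.5% of the WT counts and Tnmd-/- cell 9 gave 76.5% of the Tnmd-/- counts. Leaving out WT cell 14 moved the log2 ratio to -0.83, and leaving out Tnmd-/- cell 9 moved it to -3.56. The direction of Thbs1 turned with library scaling, to 0.013 with DESeq2 size factors and 0.25 with TMM factors, and the difference of mean log2(CPM + 1) was -0.083. With DESeq2 size factors Tnmd-/- cell 7 gave 87.8% of the summed Tnmd-/- level of Thbs1, and without Tnmd-/- cells 3 and 7 that ratio was -4.58. At 10 counts, Thbs1 was seen in 5 Tnmd-/- and 3 WT cells, and after thinning every cell to 892713 counts in 3 of each. Platelets are a known source of Thbs1, and the platelet genes Pf4, Ppbp, Gp9 and Gp1ba were at 0 in all 12 cells, while Itga2b and Gp1bb, the other 2 of the 6 platelet markers, were highest in Tnmd-/- cell 9, at 2.32 and 1.06 CPM. This cell held the most Thbs1 counts of the Tnmd-/- cells, but Tnmd-/- cell 7 and WT cells 5 and 14 had more Thbs1 by CPM. In those cells Gp1bb was at 0, and Itga2b was at 0 except for 0.221 CPM in WT cell 14. The part of platelet RNA in the 253 CPM of Thbs1 in Tnmd-/- cell 9 was not tested.

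Thbs2, the trimeric member that limits angiogenesis and shapes collagen fibrils, was higher in the Tnmd-/- cells. It measured 63.1, 11.3, 0, 994, 580 and 212 CPM in Tnmd-/- cells 1, 3, 7, 9, 10 and 20. In WT cells 1, 2, 4, 5, 10 and 14 it measured 0, 1.24, 82.3, 5.66, 2.13 and 2.44 CPM. Of the 6 Tnmd-/- cells, 5 were above every WT cell but cell 4, and cell 7 was at 0, which at its depth allows up to 3.36 CPM. Its sums were 18033 counts, or 514 CPM (506 to 521), in Tnmd-/- and 1140 counts, or 21.3 CPM (20.1 to 22.6), in WT cells. The Tnmd-/- level was 24.1-fold higher, a log2 ratio of 4.59 (4.50 to 4.68). WT cell 4 held 90.0% of the WT counts. The ratio rose to 7.53 without that cell and was 3.88 without Tnmd-/- cell 9, which gave 57.0% of the Tnmd-/- counts.

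The direction of Thbs2 was the same in every setting computed, whether by library scaling, cell weight, degradation level or the cell left out. In less degraded cells the Tnmd-/- values of 212 to 994 CPM all lay above the WT values of 2.13 to 82.3 CPM (log2 ratio 4.45), a separation in this direction that 2.55% of the 9768 genes with at least 20 counts showed. In more degraded cells the values were 0 to 63.1 CPM in Tnmd-/- and 0 to 2.44 CPM in WT cells and overlapped (log2 ratio 5.36). At 10 counts or more Thbs2 was seen in 5 Tnmd-/- and 4 WT cells. With every cell thinned to 892713 counts it was seen in the same number of Tnmd-/- cells but in 1 WT cell. The thinning was a single random draw, in which Tnmd-/- cell 3 had 10 counts of Thbs2, exactly at the limit. Endothelial markers summed to at most 31.1 CPM and immune markers to at most 209 CPM, both in Tnmd-/- cell 1. Pecam1 gave 30.1 CPM of the endothelial sum there, and Cdh5, Emcn and Egfl7 were at 0 in every cell. Itgam gave the whole immune sum there, and Ptprc, Adgre1, Csf1r, Cd3e, Cd79a and Lyz2 were at 0 in every cell. Tnmd-/- cell 1 held 335 of the 18033 Tnmd-/- counts of Thbs2 and 95.2% of those in the more degraded cells. The ratio of 5.36 thus rests on this cell. The part of the endothelial and immune markers was not tested. The mural marker sum was highest in WT cell 5, at 641 CPM from Cspg4. The rest of the mural list, Rgs5, Myh11, Mcam, Kcnj8 and Acta2, was at 0 in every cell.

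Against all genes, the pooled ratios of the thrombospondins were not unusual as a set. With 1 CPM added to both pooled levels, 35.5% of the 9768 genes were at least 2-fold higher and 34.9% at least 2-fold lower in Tnmd-/- cells, with a median log2 ratio of 0.06. Of the 4 detected members, 1 (Thbs2) was past the 2-fold line as higher and 1 (Thbs1) as lower, shares near those of all genes. Thbs2 at 4.53 on this scale exceeded 90.6% of the genes, Thbs4 52.5%, Comp 47.4% and Thbs1 26.4%. In none of the 4 members were the 6 and 6 cells free of overlap, which held for 0.041% of the 9768 genes.

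**Figure D2:**
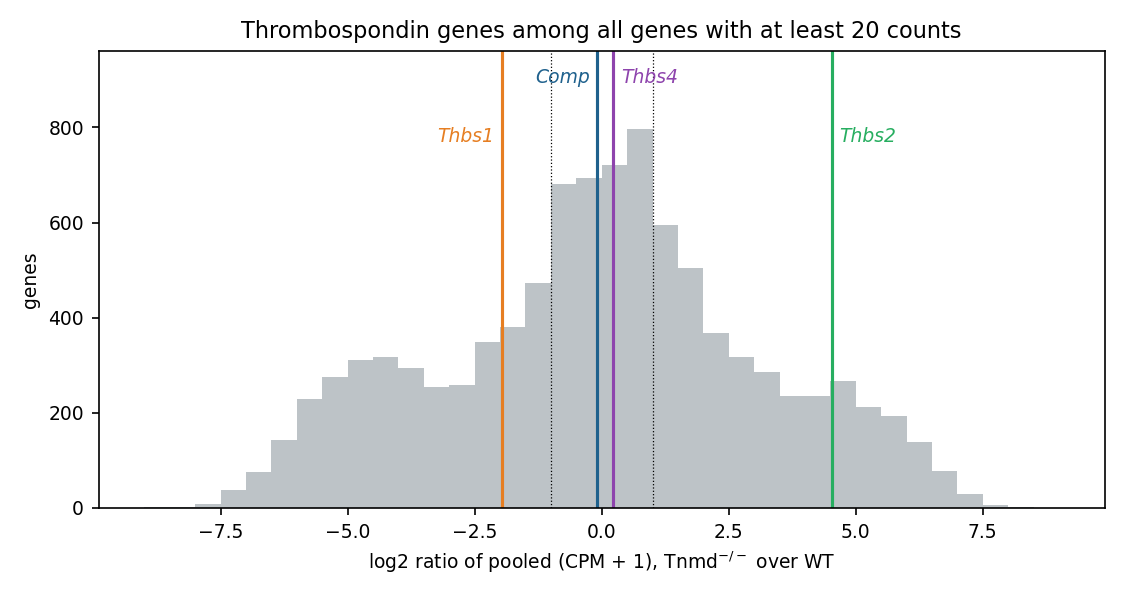
Histogram of the log2 ratio of pooled (CPM + 1), Tnmd-/- over WT, for the 9768 genes with at least 20 counts (y axis, number of genes), with a line for each detected thrombospondin and dotted lines at a 2-fold difference. Thbs2 lies in the upper shoulder at 4.53, Thbs1 at -1.96, and Comp and Thbs4 lie near the centre.

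**Figure D3:**
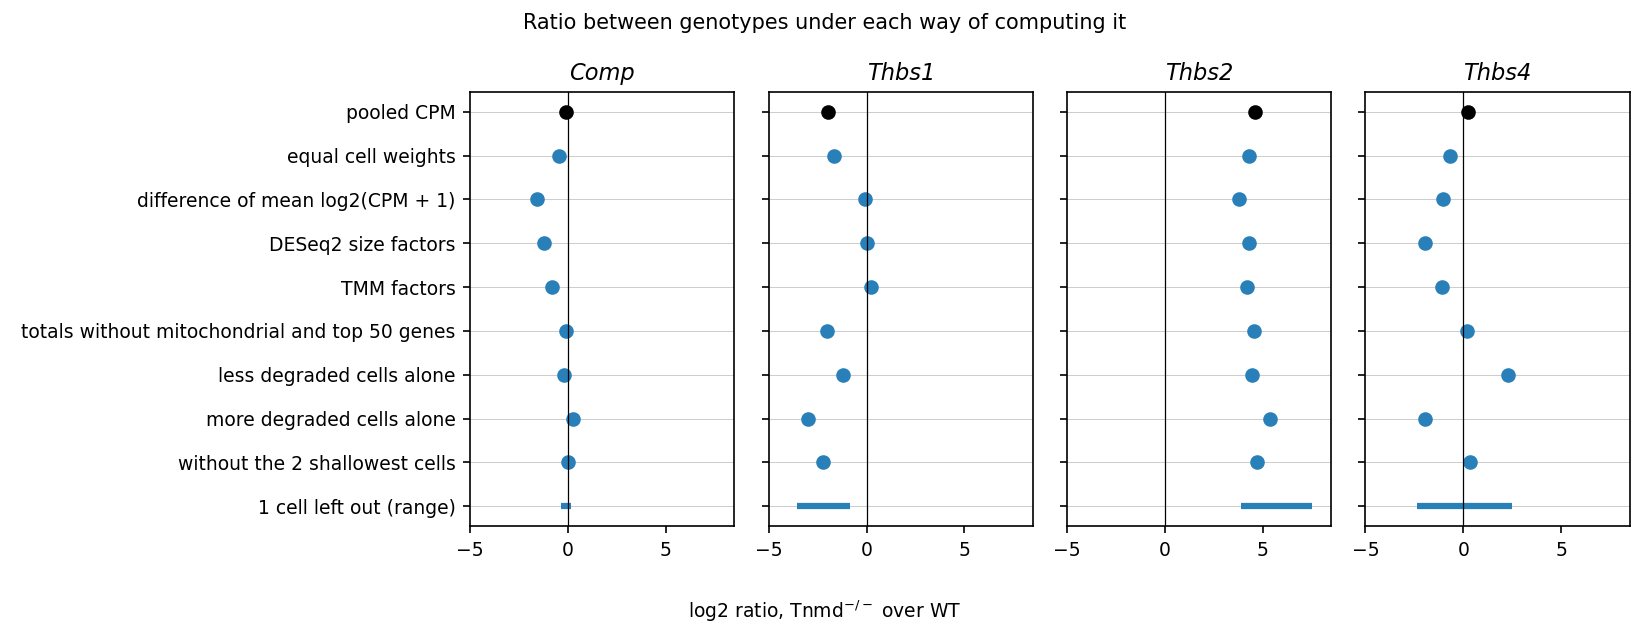
Log2 ratio of Tnmd-/- over WT (x axis) for the 4 detected thrombospondins under 9 ways of computing it, with the pooled CPM value in black and a bar for the range over leaving out 1 cell. Thbs2 stays above 0 throughout, between 3.80 and 7.53, whereas the points of Comp, Thbs1 and Thbs4 fall on both sides of 0.

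Per kilobase of exon, the pooled order of levels in Tnmd-/- cells was Comp with 3131, Thbs4 with 700, Thbs2 with 73.4 and Thbs1 with 16.0 CPM per kilobase. In WT cells it was Comp with 3324, Thbs4 with 597, Thbs1 with 63.1 and Thbs2 with 3.05 CPM per kilobase. On pooled CPM the trimeric members stood in opposite order in the genotypes, although their cells overlapped within each. With other library scaling Thbs1 was above Thbs2 in both, at 99.3 against 35.5 TMM-scaled CPM per kilobase and 647 against 118 DESeq2 normalised counts per kilobase in Tnmd-/- cells. Within single cells the make-up of the family varied more than these sums. Comp led in all 6 WT cells and in Tnmd-/- cells 1, 9 and 10. Thbs4 led in Tnmd-/- cells 3 and 20, with 63.6% and 50.9% of the family's summed CPM per kilobase, and Thbs1 led in Tnmd-/- cell 7 with 57.2%. Tnmd-/- cells 3 and 7 are the shallow, more degraded cells, with 744 and 904 counts of the family. In Tnmd-/- cell 20 Comp was close behind, with 48.6%. The family took from 0.0494% of all counts in Tnmd-/- cell 3 to 4.16% in WT cell 14. WT cell 14 had the highest Comp, Thbs1 and Thbs4 of all 12 cells and only 2.44 CPM of Thbs2. At 10 counts, 6 cells held 4 members, 4 cells held 3 and WT cells 2 and 1 held 2 and 1.

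**Figure D4:**
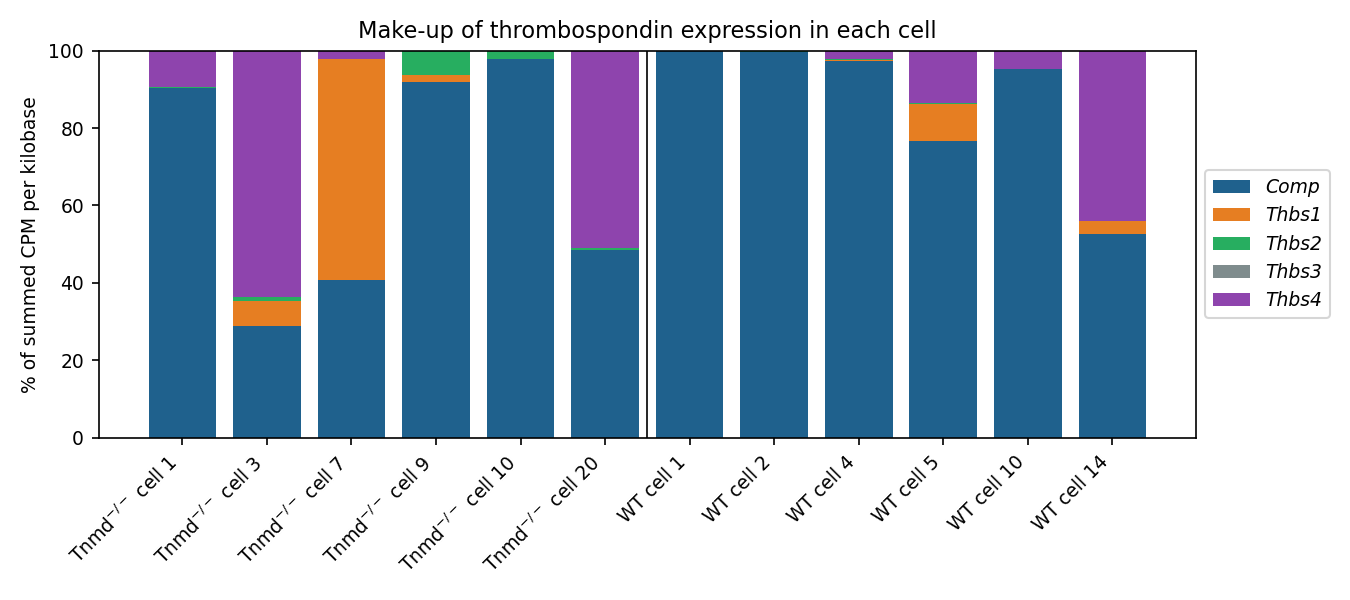
Share of each thrombospondin (y axis, % of the family's summed CPM per kilobase of exon) in each of the 12 cells, Tnmd-/- on the left of the line and WT on the right. Comp fills most of the bar in 9 cells, and Thbs4 or Thbs1 leads in Tnmd-/- cells 3, 7 and 20. Of these, cells 3 and 7 are the shallow cells, and in cell 20 Comp is close behind, with 48.6%.

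Over the 12 cells of both genotypes the rank correlations between members were low to moderate. The highest rank correlation of CPM was 0.50 for Comp with Thbs4, and it was 0.22 with DESeq2 normalised counts. The other 5 pairs lay between -0.15 and 0.28. Within the 6 WT cells most values ran higher, with 0.71 for Thbs1 with Thbs2 and 0.66 for Thbs1 with Thbs4. Comp with Thbs4 had 0.60, Thbs2 with Thbs4 0.49 and Comp with Thbs1 0.14, whereas Comp with Thbs2 ran lower, at 0.09. Within the 6 Tnmd-/- cells the pairs had, in the same order, -0.20, -0.54, 0.09, -0.37, -0.77 and 0.43. These are descriptions over few points, in which the genes of a cell share its library total. For each member, the 3 highest of 1834 rank correlations over the 12 cells were then taken, on CPM alone. Whether they exceed what so many unrelated genes would give was not tested. Among the 1834 genes that reached 10 counts in 6 or more cells, the predicted gene Gm11808 was most like Comp in rank (0.96). Htra1 (0.87), a secreted serine protease, and the predicted gene Gm10275 (0.86) followed. Gm11808 and Gm10275 were low, at 2.37 and 3.59 CPM in pooled Tnmd-/- and 2.51 and 3.80 CPM in pooled WT cells. Htra1 ran from 0.665 CPM in Tnmd-/- cell 3 to 1304 CPM in Tnmd-/- cell 1. The genes most like Thbs4 were Sfr1 (0.88), Pdrg1 (0.84) and the kinase gene Wnk1 (0.83). Thbs1 ranked most like Maff (0.80), a basic leucine zipper factor, Wif1 (0.79), a secreted Wnt inhibitor, and the predicted gene Gm3365 (0.77). Thbs2 ranked most like C3 (0.94), the central complement component, then Naa20 (0.86) and Slc25a3 (0.83), the mitochondrial phosphate carrier. C3 measured 34.3, 91.0, 0, 283, 223 and 976 CPM in Tnmd-/- cells 1, 3, 7, 9, 10 and 20. In WT cells C3 reached 114 CPM in cell 4 and at most 0.886 CPM in the other 5 cells, so that Thbs2 and C3 were both at 0 in Tnmd-/- cell 7 and both highest among WT cells in cell 4.

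Genes that thrombospondins act with were taken from lists written with earlier results of these cells known. Their counts past 2-fold stand beside the 35.5% higher and 34.9% lower of all 9768 genes. Leaving out 1 cell moved the ratio of 22 of the 24 genes named by the rule by over 1.5 times, Itgb1 and Atf4 being the exceptions. It turned the sign of 6 (Tgfb2, Smad4, Unc5b, Htra1, Lrp1 and Atf6). Between less and more degraded cells the log2 ratio changed sign in Cd47 (-6.92 and 1.62), Adamts5 (-2.18 and 3.87) and Ltbp2 (-2.61 and 1.02). The sign also changed in Hspa5 (2.07 and -1.94), Htra1, Lrp1 and Atf6, and was kept in the rest of the named genes. Among receptors and coreceptors, 13 of 16 had at least 20 counts, and 3 (23.1%) were at least 2-fold higher and 6 (46.2%) at least 2-fold lower in Tnmd-/- cells (median log2 ratio -0.64). Cd47, the receptor for the C-terminal region of Thbs1, had 1.17 CPM in Tnmd-/- and 164 CPM in WT cells, and the WT counts came from WT cells 4, 5 and 10. Calr (calreticulin), which pairs with the endocytic receptor Lrp1 at the cell surface, had 205 and 63.0 CPM, a log2 ratio of 1.69 with 1 CPM added. Lrp1, which clears Thbs1 and Thbs2, was level at 163 and 163 CPM. The integrin genes Itgav and Itgb1 had log2 ratios of -1.95 and -1.15. Cd36, the receptor for type 1 repeats, was named after its values were seen, and it was detected in Tnmd-/- cell 1 alone, at 22.8 CPM.

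Among collagens and other matrix partners, 11 of 21 had at least 20 counts, with 1 (9.09%) higher and 6 (54.5%) lower past 2-fold and a median of -1.27. Fn1 (fibronectin), a ligand of thrombospondins, measured 3577 CPM in Tnmd-/- and 8641 CPM in WT cells, of which WT cell 10 held 64.9%, and without that cell its log2 ratio was -0.19. The fibrillar collagen gene Col5a2 had 138 and 374 CPM and the collagen-binding proteoglycan gene Fmod 192 and 668 CPM, and in both the single-cell ranges overlapped. Of the 10 proteases that cleave thrombospondins or the matrix around them, 4 had at least 20 counts, with 1 higher and 2 lower (median -1.14). Adamts1, which cleaves Thbs1 and Thbs2, measured 279 and 26.8 CPM. WT cell 10 held 98.0% of its WT counts and Tnmd-/- cell 9 held 68.1% of its Tnmd-/- counts. The log2 ratio of Adamts1 was 3.33, and became 2.19 without Tnmd-/- cell 9 and 7.36 without WT cell 10. Adamts5, an aggrecanase, measured 211 and 843 CPM, and its log2 ratio of -1.99 became -3.50 without Tnmd-/- cell 9. Htra1 measured 410 and 499 CPM, with a log2 ratio of -0.99 without Tnmd-/- cell 1 and 0.14 without WT cell 10.

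Among genes of latent transforming growth factor beta and its signalling, 14 of 16 had at least 20 counts, with 2 higher and 7 lower (median -0.84). The binding proteins of the latent complex went both ways, with Ltbp4 at 142 and 16.4 CPM and Ltbp2 at 104 and 579 CPM. The log2 ratio of Ltbp4 was 3.04 and became 6.31 without WT cell 5, and that of Ltbp2 was -2.47 and became -8.09 without Tnmd-/- cell 9. Tgfb2 had log2 ratio 0.92 and the signal transducer Smad4 0.94, both seen in 3 Tnmd-/- and 2 WT cells, but without Tnmd-/- cell 20 these ratios were -0.89 and -0.50. Of 24 other genes whose proteins carry type 1 repeats, 5 had at least 20 counts, with 3 higher and 2 lower (median 1.01). Ccn1 measured 501 and 248 CPM, Ccn2 347 and 1587 CPM, and the netrin receptor gene Unc5b 68.4 and 23.9 CPM. The log2 ratio of Unc5b was -0.52 without Tnmd-/- cell 20 and 5.32 without WT cell 4.

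Thrombospondins are folded in the endoplasmic reticulum, and Thbs4 is known to bind Atf6 there. All 16 genes of secretory folding had counts and 14 of them at least 20, with 3 higher and 4 lower past 2-fold (median 0.20). The chaperone gene Hspa5 measured 2324 and 1535 CPM and the stress factor Atf4 1692 and 1216 CPM, with log2 ratios of 0.60 and 0.48. Ddit3, another stress factor, had a ratio of 1.05, Xbp1 one of -1.54 and the disulfide isomerase gene Pdia6 one of -6.01. Atf6 measured 39.8 and 83.7 CPM, and WT cell 2 held 95.7% of its WT counts, so that its log2 ratio was -1.05 with and 3.05 without that cell. Among Tnmd-/- cells, cells 20 and 1 were highest in both genes, with Thbs4 at 10378 and 1950 CPM and Atf6 at 151 and 70.1 CPM. Among WT cells, Atf6 was highest in cell 2, at 887 CPM beside 10.2 CPM of Thbs4, and was at 0.221 CPM in cell 14 beside 18765 CPM of Thbs4.

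**Figure D5:**
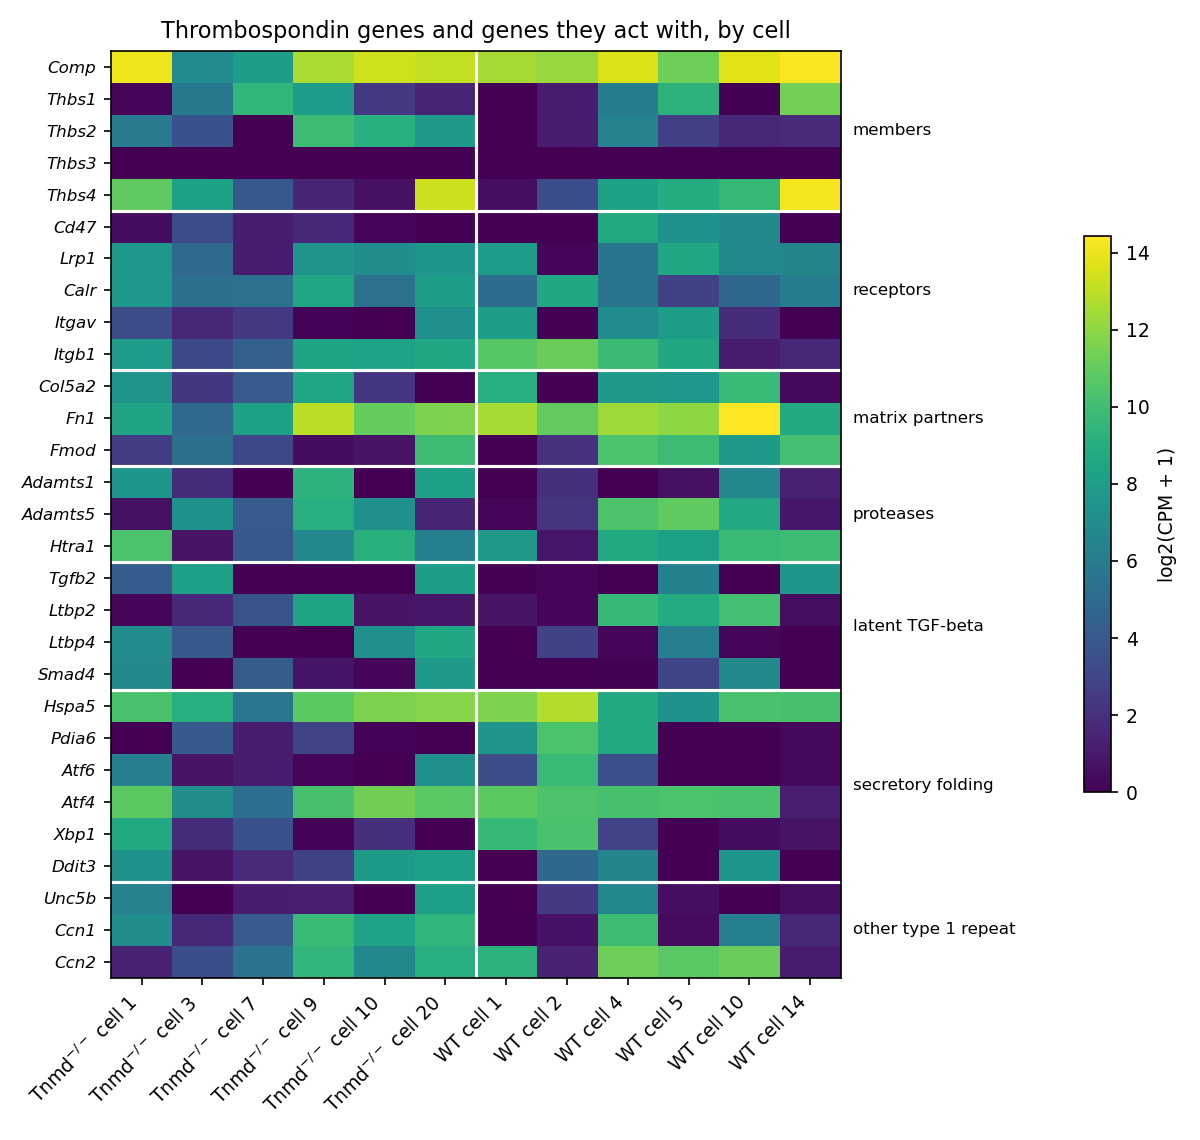
Log2(CPM + 1) (colour) of the 5 thrombospondins and of the named genes they act with (rows, by list) in each of the 12 cells (columns, Tnmd-/- on the left of the line). Comp is bright in 10 cells, Thbs3 is dark in all 12, and most other genes are present in some cells of both genotypes and missing in others.

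Comp and Thbs4 are also made by cartilage cells. The cartilage marker sum ran from 216 to 15695 CPM in Tnmd-/- and from 3196 to 21719 CPM in WT cells, mostly from Chad, which like Comp was seen in all 12 cells. The defining cartilage genes Col2a1, Col9a1, Col11a2, Cnmd and Matn3 were at 0 in every cell. Sox9, the chondrogenic transcription factor, reached 10 counts in 7 cells, with 482 CPM in Tnmd-/- cell 9 and 253 CPM in WT cell 1, and Hapln1 was highest in Tnmd-/- cell 10, at 187 CPM. Acan was highest in Tnmd-/- cells 9 and 10, at 849 and 1042 CPM. Thbs2 was also highest in these cells, and Thbs4 was at 1.94 and 0.582 CPM. Other cells did not pair in this way. WT cell 2 had 234 CPM of Acan beside 1.24 CPM of Thbs2, and Tnmd-/- cell 20 had Acan at 0 beside 212 CPM of Thbs2. The part of these markers in the results was not tested.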

How the data were processed

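Single-cell RNA sequencing of 6 Tnmd-/- and 6 WT ScxGFP+ cells was analysed. The counts deposited by the authors are raw reads per gene and cell. The authors trimmed reads with BBDuk, kept mouse reads with BioBloom Tools, aligned them with STAR 2.5.1b to GRCm38 and counted uniquely mapping exonic reads with featureCounts of Subread 2.0.0. The strand setting of counting is not given in the sources used here, and there are no molecular identifiers. Exon length came from the same deposited table.

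Counts were divided by the total of a cell, or summed over a genotype, and multiplied by 1000000. No cell was filtered, and no doublet caller was run on hand-picked cells. Groups came from the labels, and degradation levels from the annotation of the study's heat map. Intervals are 95% exact Poisson intervals on sums and exact Clopper-Pearson intervals on ratios. Zeros are bounded by 3 counts. A gene was called seen in a cell at 10 counts, and ratios over many genes used those with at least 20 counts and added 1 CPM. Depth was 892713 to 13613080 counts per cell.

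The members and gene lists were chosen with earlier results of these data known. Named are the 5 members, Tnmd and Scx, the markers a result turns on, at most 3 genes per list and direction with the largest log2 ratio among those with at least 10 counts in at least 3 of 6 cells of the higher genotype, and the 3 genes with the highest Spearman correlation to a member. Alternatives were equal cell weights, mean log2(CPM + 1), size factors from DESeq2 1.42.0, TMM scaling from edgeR 4.0.16, totals without 37 mitochondrial and the top 50 genes, each degradation level, each cell left out, other detection limits, thinning, a minimum of 100 counts or of 1 count, and 5 CPM. Leaving out Tnmd-/- cells 3 and 7 together was chosen after seeing the data. Coordinates and sequences came from GENCODE M21 and the GRCm38 genome, and coding sequences were aligned with MAFFT 7.526. Scripts ran in Python 3.11.15, with scipy 1.17.1, and R 4.3.3.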

Additional observations from a re-analysis of the deposited data

Results flagged for a closer look

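On the CPM scale, 5 of the 8 groups of 6 cells had a cell that stood far from the others, measured as the gap to its nearest neighbour divided by the range of the group, a measure whose limit marks about 1 group in 20 by chance for normally distributed values. Whether that rate holds for CPM of single cells was not tested. For Thbs4 these were Tnmd-/- cell 20 (0.812) and WT cell 14 (0.959), and for Thbs1 Tnmd-/- cell 7 (0.658) and WT cell 14 (0.759). For Thbs2 it was WT cell 4 (0.931). On the log2(CPM + 1) scale 0 of the 8 groups had such a cell. WT cell 14 was also the cell with 10178 of the 10185 WT counts of Tnmd.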

How the results depend on the processing

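Values are log2 ratios of Tnmd-/- over WT, in the order Comp, Thbs1, Thbs2 and Thbs4. Pooled CPM gave -0.09, -1.97, 4.59 and 0.23. Equal cell weights gave -0.47, -1.67, 4.31 and -0.69, and the difference of mean log2(CPM + 1) gave -1.58, -0.083, 3.80 and -1.06. DESeq2 size factors gave -1.25, 0.013, 4.29 and -1.98, and TMM factors -0.80, 0.25, 4.21 and -1.09. Both turned the direction of Thbs1, and these 4 settings turned that of Thbs4. The size factors of Tnmd-/- cells 3 and 7 were 0.0379 and 0.0319 against 0.558 to 5.01 elsewhere. Without these cells, a choice made after seeing the data, pooled CPM gave 0.014, -2.23, 4.69 and 0.32, and DESeq2 size factors gave -0.82, -4.58, 4.74 and -1.93. Totals without mitochondrial and top 50 genes gave -0.12 for Comp and 0.20 for Thbs4. Less degraded cells alone gave -0.21, -1.19, 4.45 and 2.28, and more degraded cells alone 0.27, -3.01, 5.36 and -1.98. The cause of these changes was not tested. Leaving out 1 cell gave -0.37 to 0.15 for Comp, -3.56 to -0.83 for Thbs1, 3.88 to 7.53 for Thbs2 and -2.36 to 2.48 for Thbs4. Numbers of genes past 2-fold stayed within 1.5 times under the other filters and 5 CPM, at 2690 to 3468 higher and 2830 to 3407 lower. Their shares, 35.5% higher and 34.9% lower in the main setting, were 36.4% and 39.2% with at least 100 counts. With at least 1 count they were 26.1% and 25.7%, and with 5 CPM 27.5% and 29.0%. No paired analysis was possible because cell numbers name picked cells and no test was made. With the animal of a cell unknown and 6 cells a genotype, the ratios describe these cells. Depth limits zeros to 3.36 CPM in the shallowest cell.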
